A study of Mus musculus with 2 samples.

Results

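The cardiac myosin genes Myl2, Myl3, Myl4, Myl7, Myh6 and Myh7 were examined for H3K27ac, an acetylation of a histone H3 lysine found at active promoters and enhancers, in reporter-marked cells of the mouse embryonic heart at stage E10.5. Members were the peaks of either deposited list whose midpoint lay in 1 of 5 mm9 windows named for the genes, with Myh6 and Myh7 in a single window. The windows were Myl2 chr5:122500001-122600000, Myl3 chr9:110590001-110690000, Myl4 chr11:104360001-104460000, Myl7 chr11:5750001-5850000 and Myh6-Myh7 chr14:55500001-55650000, the last 150 kb long and the others 100 kb. There were 126 such peaks of 154664, 51 in the atrioventricular canal (AVC) list of 87572 and 75 in the chamber list of 67092. The AVC library came from EGFP-positive cells of the atrioventricular canal, which joins the developing atria to the ventricles and gives rise to the atrioventricular node and valve cushions. The chamber library came from Katushka-positive cells of the chambers. EGFP is a green and Katushka a far-red fluorescent protein, and both tissues carried the genotype label Katushka+ EGFP+ on the FVB/N background. What drives each reporter is not stated in the labels. With 1 library per tissue, no value below has a replicate check and no test between tissues was possible.

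Myosin II, the motor of the sarcomere, is built from heavy chains that hydrolyse ATP and pull on actin, each of which binds an essential and a regulatory light chain at its neck. In the mouse heart Myh6 encodes the fast alpha heavy chain and Myh7 the slower beta heavy chain, which prevails in embryonic ventricles. Myl2 and Myl7 encode the ventricular and the atrial regulatory light chain, and Myl3 and Myl4 the ventricular and the atrial essential light chain. The chamber library joins atria and ventricles, so these patterns cannot be separated in it.

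The windows name genes, but mm9 gene positions were not used here, and no peak was assigned to a promoter or a gene. By gene order in RefSeq (GRCm38.p6), Myl2 (gene ID 17906) lies between the protein-coding genes Cux2 and Ccdc63, Myl3 (17897) between Pth1r and Prss42, and Myl4 (17896) between Cdc27 and Itgb3. The gene ID of Myl7 is 17898. Myh6 (17888) and Myh7 (140781) adjoin each other between Cmtm5 and Ngdn. A peak of a window may therefore belong to a neighbour.

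The RefSeq promoter table held all 6 genes, with 2 starts each for Myl2 and Myh7 and 1 for the others. The 250 bases before each of these 8 starts were searched on both strands for the TATA box TATAAA, the MCAT element CATTCC bound by TEAD factors, the GATA factor motif GATAA, the MEF2 box CTANNNNTA, AGGTGT (T-box), CANNTG (E-box), AAGTG (NKX) and the CArG box bound by SRF. CATTCC occurred before 4 of the 8 starts, beside 12.6% of the 32851 listed starts of all genes. The CArG box occurred before 2, those of Myl3 and Myl7, beside 1.47% of all starts, and GATAA before 3, beside 22.6%. TATAAA was found, on the other strand, before 1 start, the second of Myl2 (12.4% of all starts). No member start held CTANNNNTA (19.0% of all) or AGGTGT (11.8%). CANNTG lay before 7 (66.2% of all) and AAGTG before 6 (40.7%), and these can overlap where CACTTG occurs. The Myh7 stretches overlap, so some of their sites are the same and count for both starts. Whether the listed starts, those of Myl2 among them, are the ones used in the heart was not checked. Only letters were matched, and a match or its lack says nothing of a factor's binding.

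The 4 starts with CATTCC are shown, 5′ to 3′ on the gene's strand, with any match to the TATA, MCAT, GATA factor, MEF2 and CArG motifs in capitals. The coordinates are GRCm38.p6 and cannot be set beside the mm9 peaks. They are Myl3 chr9:110763428-110763677 (+), Myl7 chr11:5898783-5899032 (−), Myh6 chr14:54966608-54966857 (−) and the first Myh7 start chr14:54994627-54994876 (−).
Myl3: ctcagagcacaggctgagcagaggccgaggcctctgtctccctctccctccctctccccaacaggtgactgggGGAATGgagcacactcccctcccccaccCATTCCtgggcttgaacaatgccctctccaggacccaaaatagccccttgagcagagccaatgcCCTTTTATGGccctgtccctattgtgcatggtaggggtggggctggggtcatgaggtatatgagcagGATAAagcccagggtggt
Myl7: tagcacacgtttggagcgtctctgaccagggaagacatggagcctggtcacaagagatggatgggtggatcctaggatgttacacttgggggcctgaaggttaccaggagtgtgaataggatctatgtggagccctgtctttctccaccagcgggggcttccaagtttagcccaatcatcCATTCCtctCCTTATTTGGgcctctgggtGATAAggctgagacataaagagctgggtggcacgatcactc
Myh6: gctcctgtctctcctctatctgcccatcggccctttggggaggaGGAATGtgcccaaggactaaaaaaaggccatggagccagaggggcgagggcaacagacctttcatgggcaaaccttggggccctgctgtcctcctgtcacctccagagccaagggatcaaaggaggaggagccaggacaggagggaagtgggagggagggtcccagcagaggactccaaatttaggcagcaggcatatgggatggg
Myh7: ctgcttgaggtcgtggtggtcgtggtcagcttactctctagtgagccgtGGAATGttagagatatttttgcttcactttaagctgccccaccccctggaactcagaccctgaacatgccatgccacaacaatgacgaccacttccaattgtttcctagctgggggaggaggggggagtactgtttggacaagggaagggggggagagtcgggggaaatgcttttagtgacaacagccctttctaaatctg
In Myl7 the CATTCC (70 to 65 bases before the start), the CArG box CCTTATTTGG (61 to 52) and GATAA (41 to 37) follow each other within a short stretch. Myl3 holds CATTCC once on each strand, the CArG box CCTTTTATGG (85 to 76) and GATAA (18 to 14). Both heavy chain starts shown hold CATTCC on the other strand, 206 to 201 bases before Myh6 and 201 to 196 before the first Myh7 start, and no other capital match. The second Myh7 start, not shown, has no CATTCC.

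Each deposited peak has a whole-number signal value, which the file headers do not name, and a score, the caller's Log(ER). Both are the authors' values, unscaled between the lists, and scores are set within each chromosome. Sequencing depth is unknown. Over the whole lists the signal values had medians of 31.0 (AVC) and 29.0 (chambers), and the median widths were 472 and 325 bp. Only these cardiomyocyte loci were at hand for a check of the tissue labels. Both lists had peaks in every window. However, tiles of 100 kb with a peak in either list had medians of 3 AVC and 2 chamber peaks. The presence of peaks here is thus no check of the labels.

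All 5 windows carried more chamber than AVC peaks in the lists as deposited, an order that turned in 3 windows once narrow peaks were left out. The Myl2 window held 3 AVC and 8 chamber peaks, an AVC share of 27.3% (exact Clopper-Pearson 95% interval 6.02 to 61.0). The Myl3 window held 8 and 12 (40.0%, 19.1 to 63.9), and the Myl4 window 14 and 15 (48.3%, 29.4 to 67.5). For Myl7 the numbers were 9 and 10 (47.4%, 24.4 to 71.1), and for Myh6-Myh7 17 and 30 (36.2%, 22.7 to 51.5). Over all windows the AVC share was 40.5% (31.8 to 49.6), beside 56.6% over both whole lists. Of the single windows, only the interval of Myh6-Myh7 lay below 56.6%. Intervals cover counting error only and are too narrow, since neighbouring peaks are not independent. Among peaks of at least 300 bp, the AVC share was 52.1% in the windows and 66.9% over the lists. It was then 60.0% at Myl7, 66.7% at Myl3 and 61.9% at Myl4, so that AVC peaks were the more numerous there, and 33.3% at Myl2 and 43.2% at Myh6-Myh7. Among peaks with a score of at least 3, the AVC share was 38.7% in the windows and 50.2% over the lists. Under that limit only Myl4 lay above the lists (58.8% of 17 peaks), and each other window was at 40.0% or less. By length, AVC peaks covered 25.2 kb and chamber peaks 28.9 kb of the windows, a ratio of 0.872, whereas over the whole lists AVC peaks covered 1.80 times as much as chamber peaks.

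**Figure D1:**
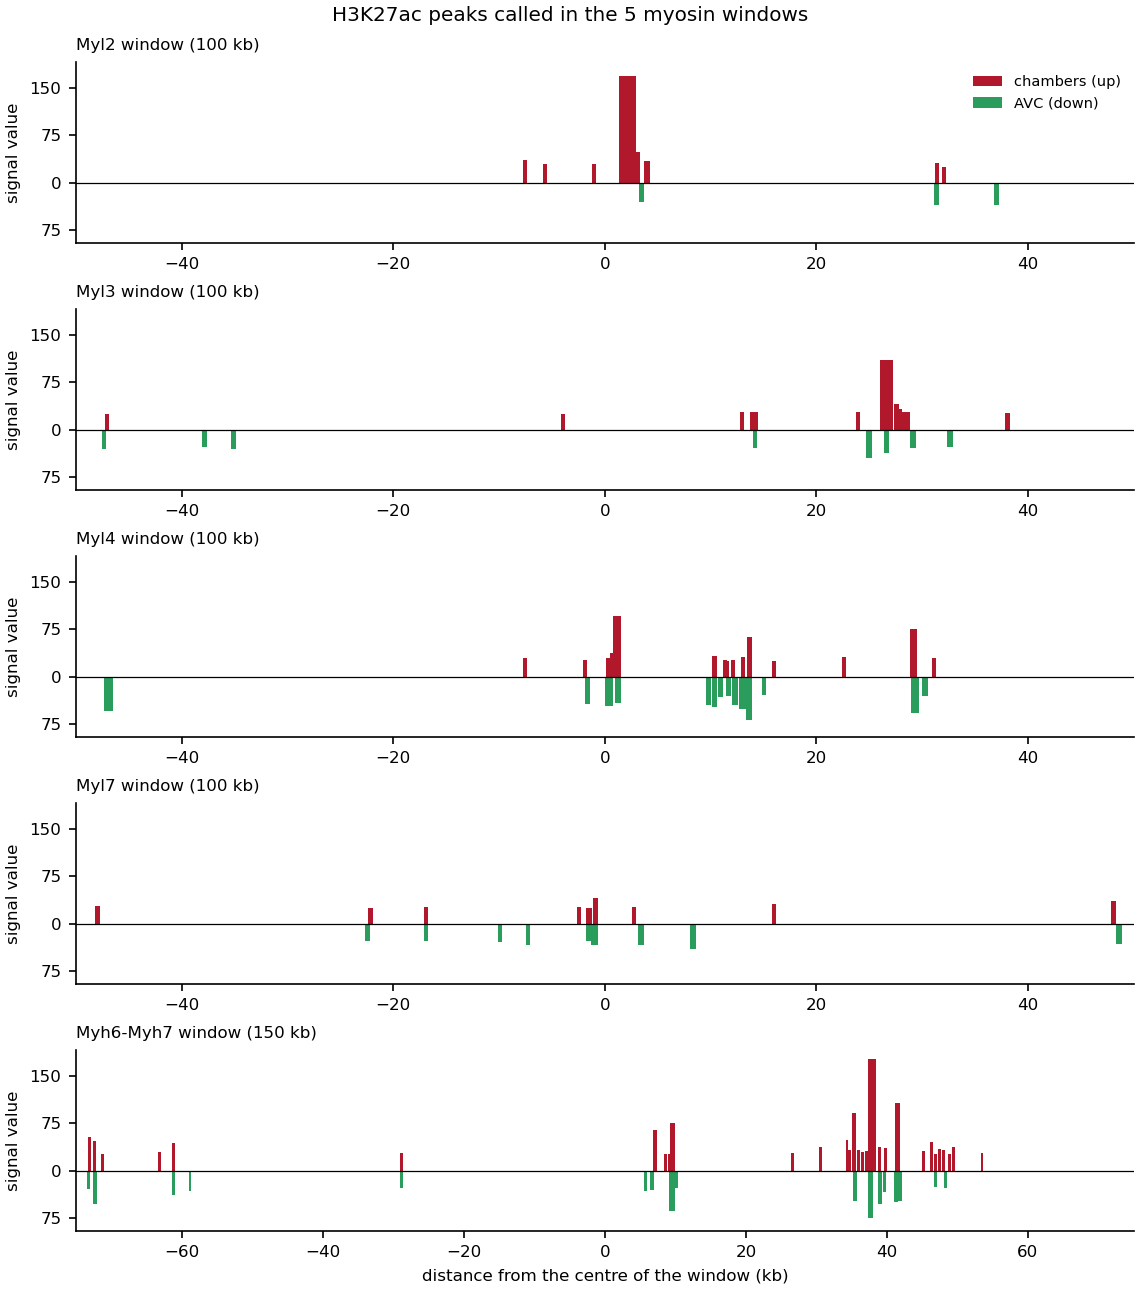
Deposited signal value of each peak in the 5 windows against the distance of its midpoint from the centre of the window in kb. Chamber peaks point up and AVC peaks down from 0, and bars are as wide as the peak (at least 0.4 kb for visibility). The highest chamber bars, 168 at Myl2, 110 at Myl3, 95 at Myl4 and 177 at Myh6-Myh7, have no AVC bar of like height, and the Myl7 window has no bar above 40.

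**Figure D2:**
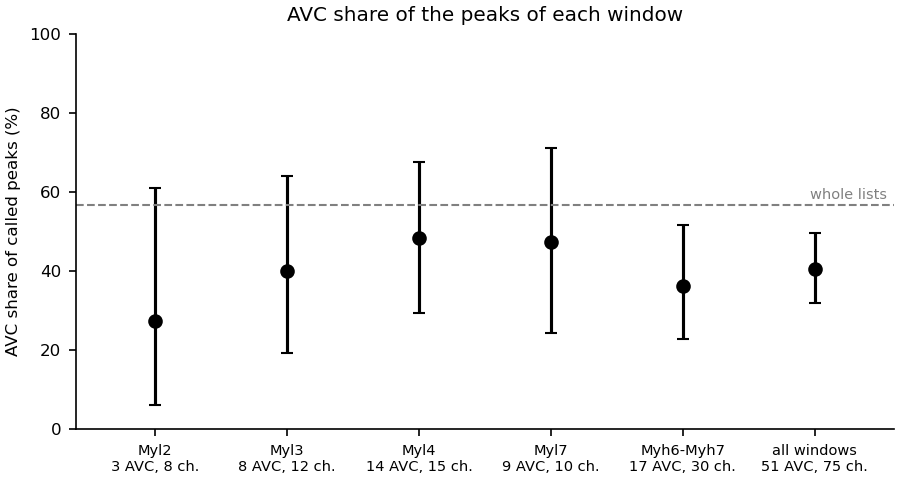
AVC share of the called peaks in each window in percent, with exact 95% intervals (bars) and the numbers of AVC and chamber (ch.) peaks under each name. The dashed line is the share over both whole lists, 56.6%, and all points lie below it, from 27.3% at Myl2 to 48.3% at Myl4.

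Myosin peaks overlapped the other list more often than peaks at large. Of the 51 AVC peaks, 32 overlapped a chamber peak by at least 1 bp (62.7%, 48.1 to 75.9), beside 23.2% of the whole AVC list. Of the 75 chamber peaks, 37 overlapped an AVC peak (49.3%, 37.6 to 61.1), beside 31.6% of the whole chamber list. By window, the share of AVC peaks ran from 37.5% at Myl3 to 82.4% at Myh6-Myh7. That of chamber peaks ran from 33.3% at Myl3, near the whole list, to 66.7% at Myl4. Each window had more chamber peaks than at least 89.6% of tiles of its size. Whether this density bears on the overlap was not tested. Scores of 5 or more were reached by 11 AVC peaks (21.6%, beside 9.95% of the list) and 16 chamber peaks (21.3%, beside 18.1%). The AVC peaks among them lay at Myh6-Myh7 (7) and Myl4 (4). The chamber peaks lay at Myh6-Myh7 (10), Myl4 (3), Myl2 (2) and Myl3 (1), and the Myl7 window had none in either list.

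Overlapping peaks of both lists were merged into regions, 88 in the windows and 132345 in all, and the signal values of a region were summed within each list. Ratios are given relative to the median AVC-to-chamber ratio over the 19231 regions with peaks of both lists, which was 1.08. In the windows 31 regions had peaks of both lists, and 7 of them (22.6%) were higher in the chambers by at least 2-fold, beside 9.14% of such regions in the genome. None of the 31 was higher in the AVC by at least 2-fold, beside 3.80%. Chamber peaks alone made up 38 of the 88 regions (43.2%, beside 34.7% of all regions), and AVC peaks alone 19 (21.6%, beside 50.8%). With peaks of at least 300 bp the counts were 20 regions with chamber peaks alone and 24 with AVC peaks alone. The genome's shares of such regions under that limit are not given here. AVC peaks then made up 66.9% of both whole lists, so the 24 against 20 cannot be read as a lean to the AVC. The median log2 ratio (AVC over chambers, relative to the median of all) was −0.24 over the 31, with a range from −1.68 to 0.68, and 20 were below 0. Taking the highest signal value of a region in place of the sum also gave 7 regions, 5 of them the same. Centring on the median log2 ratio of regions of at least 500 bp (−0.04) in place of that of all regions (0.11) gave 6 higher in the chambers, beside 6.22% of the genome's regions, and none higher in the AVC, beside 7.19%. The members' median was then −0.08.

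**Figure D3:**
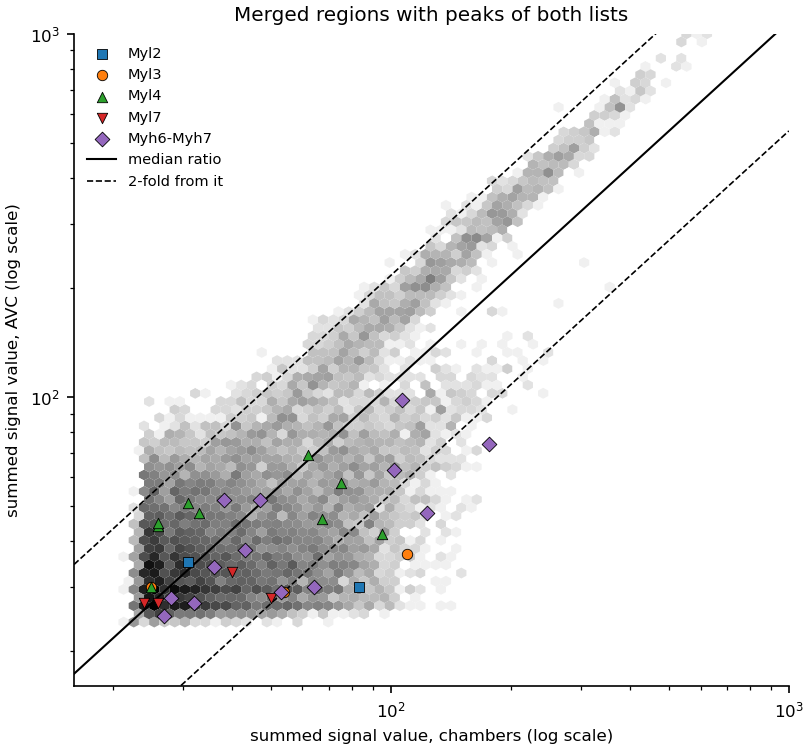
Summed signal value in the chambers (x) and the AVC (y), both on log scales, of merged regions with peaks of both lists. Grey cells are all 19231 such regions (those within the axes), darker where there are more. Coloured symbols are the 31 regions of the myosin windows, the solid line is the median ratio and the dashed lines lie 2-fold from it. A band of grey cells above the median line reaches high values in both lists, and the myosin regions with the highest values lie below it. There are 7 symbols below the lower dashed line and none above the upper.

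Ratios varied with width. The 3014 regions under 300 bp had a median ratio of 1.66, and none of the myosin regions was that narrow. The 11937 regions of at least 500 bp had a median ratio of 0.970, and 23 of the 31 myosin regions were of that width.

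Myl2, the ventricular regulatory light chain, had the lowest AVC share of peaks and of summed signal value among the windows. Its strongest chamber peak, chr5:122551309-122552960, had a signal value of 168 and a score of 22.99 over 1652 bp. It ranked 53 of 3631 by signal value on the chromosome, and no AVC peak overlapped it. The lowest signal value called in the AVC on chromosome 5 was 27. The next region, chr5:122552971-122554240, held chamber peaks of 49 and 34 and an AVC peak of 30, which is 2.99-fold higher in the chambers by the sum and 1.80-fold by the highest peak. Together these formed a cluster of 2.93 kb with summed values of 251 in the chambers and 30 in the AVC. Farther along, chr5:122581157-122581584 had 35 in the AVC and 31 in the chambers, a log2 ratio of 0.06. The strongest AVC peak of the window, 36 at chr5:122586822-122587249, had no chamber peak within 1 kb. Chamber peaks of 35, 30 and 30 lay before the cluster, where the AVC list had none. In the whole window the 8 chamber peaks summed to 401 (mean 50.1) over 4.03 kb, and the 3 AVC peaks to 101 (mean 33.7) over 1.42 kb. Of 21588 tiles of 100 kb with a peak in either list, 96.4% had a lower highest chamber score than this window and 43.2% a lower highest AVC score.

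Myl7, the atrial regulatory light chain, had weak peaks in both tissues. Signal values ran from 24 to 40 in the chambers (median 26.0) and from 27 to 40 in the AVC (median 32.0). The strongest chamber peak, 40 with a score of 4.41 at chr11:5798872-5799376, overlapped an AVC peak of 33, and their region was 1.31-fold higher in the chambers. The adjoining region chr11:5798188-5798687 had 2 chamber peaks of 25 each and an AVC peak of 28. It was 1.93-fold higher in the chambers by the sum, while by the highest peak its log2 ratio was 0.02. Near equality held at chr11:5777414-5778027 (27 in the AVC, 24 in the chambers) and chr11:5782926-5783309 (27 and 26). The strongest AVC peak, 40 with a score of 3.55 at chr11:5808025-5808583, had no chamber peak within 1 kb. The strongest chamber peak with no AVC overlap had 35 (score 3.63) at chr11:5847934-5848248, with an AVC peak of 32 within 1 kb. No region of the window reached a 2-fold difference, and the summed values were 283 in the AVC (4.31 kb) and 286 in the chambers (3.33 kb). The window was nevertheless peak-rich, since 89.6% of the 100 kb tiles had fewer AVC peaks and 93.4% fewer chamber peaks.

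Myl3, the ventricular essential light chain, had 1 strong chamber peak. At chr9:110666006-110667209 the chambers had a signal value of 110 (score 16.62, 1204 bp wide, rank 164 of 3067 on the chromosome). The AVC peak inside it had 37 (score 3.21, rank 1252 of 4229). The region was 3.21-fold higher in the chambers, and 1.16% of the 19231 regions had a ratio as low or lower. It was named for its strong chamber peak, a choice that favours a low ratio. Among 1965 genome regions with both lists, at least 500 bp and a chamber score of 10 or more, 40.8% passed 2-fold too. Chamber peaks of 41, 33, 27 and 27 followed within the next stretch, to position 110668724, none of them overlapped by an AVC peak. The strongest AVC peak of the window, 45 with a score of 4.26 at chr9:110664726-110665234, lay just before the strong chamber peak and overlapped none. The cluster holding these spanned 5.56 kb, with summed values of 266 in the chambers and 111 in the AVC. The region chr9:110653758-110654445 also passed 2-fold by the sum (2.01-fold), from chamber peaks of 27 and 27 against an AVC peak of 29, and had a log2 ratio of −0.04 by the highest peak. At chr9:110592470-110593063 the AVC had 30 and the chambers 25. Over the window the summed values were 256 in the AVC (mean 32.0, 3.65 kb) and 424 in the chambers (mean 35.3, 4.36 kb).

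Myl4, the atrial essential light chain, had regions leaning either way. The strongest chamber peak, chr11:104410772-104411498, had a signal value of 95 (score 13.77) and the AVC peak in it 42 (score 3.80), a 2.44-fold difference. Just before it, chr11:104410023-104410737 held an AVC peak of 46 and chamber peaks of 29 and 38, which leaned to the chambers by the sum (1.57-fold) and to the AVC by the highest peak (log2 ratio 0.13). Farther along lay the largest cluster of any of the windows, chr11:104419578-104426118, with 8 AVC and 7 chamber peaks over 6.54 kb. Its summed values were 349 in the AVC and 229 in the chambers. It held 5 regions with peaks of both lists, and all 5 lay on the AVC side of the median ratio by every measure used, though none by 2-fold. The AVC and chamber values were 48 and 33 at chr11:104420151-104420628 (log2 ratio 0.43), 30 and 25 at chr11:104421444-104421863 (0.15) and 45 and 26 at chr11:104421960-104422606 (0.68). They were 51 and 31 at chr11:104422667-104423348 (0.61) and 69 and 62 at chr11:104423380-104423928 (0.04). The AVC peak of 69, with a score of 7.69, was the strongest of the window in that list.

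Outside that cluster, chr11:104438858-104439654 had 58 in the AVC (score 6.04) and 75 in the chambers (score 10.29), a 1.40-fold difference towards the chambers. At chr11:104408022-104408608 the AVC had 44 and the chambers 26 (log2 ratio 0.65). An AVC peak of 55 (score 5.61, 886 bp wide) at chr11:104362624-104363509 had no chamber peak within 1 kb. The strongest chamber peak with no AVC overlap was only 31, at chr11:104432474-104432753. Myl4 was the single window whose summed signal value was larger in the AVC, 624 over 7.77 kb (mean 44.6) against 583 over 5.34 kb (mean 38.9). Of the 100 kb tiles, 98.8% had fewer AVC peaks with a score of 5 or more than its 4, and 94.6% fewer such chamber peaks than its 3.

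**Figure D4:**
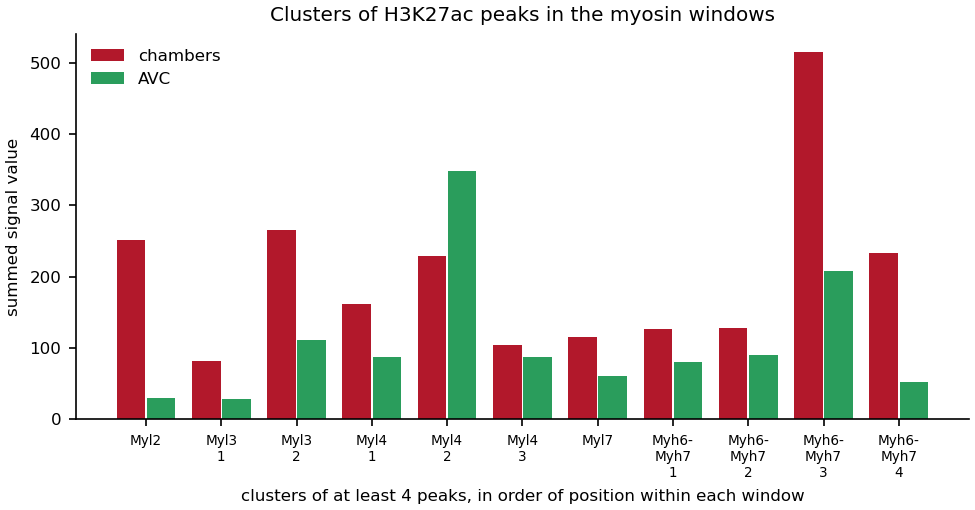
Summed signal value in the chambers and the AVC of the 11 clusters with at least 4 peaks, peaks of either list being chained where no more than 1 kb apart. Clusters of a window are numbered by position. The chamber bar is the taller in 10 clusters, most at Myh6-Myh7 cluster 3 (515 against 208), and the AVC bar in 1, Myl4 cluster 2 (349 against 229). The sums are not centred, and the share of the genome's clusters with the larger chamber sum is not given here. The 10 of 11 can therefore not be read as particular to these windows.

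Myh6 and Myh7, the heavy chains, shared the longest window, which held the most peaks of each list. Chamber peaks covered 7.87% of it, the largest share of any window, and AVC peaks 5.35%, less than the 7.77% at Myl4. The 30 chamber peaks of the Myh6-Myh7 window ranged in signal value from 26 to 177 (median 33.5), and its 17 AVC peaks from 25 to 74 (median 34.0). Of 15298 tiles of 150 kb with a peak, 99.3% had fewer chamber peaks and 95.4% fewer AVC peaks. For peaks with a score of 5 or more, 99.5% of tiles had fewer than the 10 of the chambers and 99.5% fewer than the 7 of the AVC. Summed values were 1369 in the chambers (mean 45.6, 11.8 kb) and 689 in the AVC (mean 40.5, 8.03 kb).

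The strongest peaks of both lists in this window coincided. At chr14:55612246-55613386 the chambers had 177 (score 23.40, rank 60 of 2778) and the AVC 74 (score 9.34, rank 174 of 4573), a 2.58-fold difference. These were also the highest signal values of all 5 windows in either list. Nearby, chr14:55610073-55611120 had chamber peaks of 91 and 32 and an AVC peak of 48, 2.77-fold higher in the chambers by the sum and 2.09-fold by the highest peak. Between and around them lay chamber peaks with no AVC overlap, the strongest with a value of 48 at chr14:55609186-55609497. The cluster of 5.78 kb held 9 chamber and 4 AVC peaks. Clusters with at least 10 peaks were 0.343% of all 105101 in the genome. Not all of it leaned to the chambers, since chr14:55613739-55614267 had 52 in the AVC and 38 in the chambers (log2 ratio 0.34). The next region, chr14:55614509-55614968, had 34 and 36, a slight lean to the chambers (−0.19).

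A second strong chamber peak, 107 with a score of 15.95, lay in chr14:55616038-55617105 over a pair of AVC peaks of 50 and 48. By the sum the region was 1.18-fold higher in the chambers and by the highest peak 2.36-fold. Beyond it, from 55620008 to 55624597, 7 chamber peaks summed to 234 and 2 AVC peaks to 52. The strongest of the 7 had a value of 45 (chr14:55621042-55621539) and no overlap in the AVC.

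In the middle of the window chr14:55583997-55584923 had an AVC peak of 63 (score 7.50) and chamber peaks of 27 and 75 (score 10.59 for the second). It was 1.75-fold higher in the chambers by the sum and 1.31-fold by the highest peak. Before it, chr14:55581438-55582365 had 30 in the AVC and 64 in the chambers, a 2.30-fold difference. At the other end of the window chr14:55502406-55502907 had 52 in the AVC and 47 in the chambers (log2 ratio 0.03), with the same score of 5.72 in both lists. Its neighbour chr14:55501575-55502157 had 29 and 53, a 1.97-fold difference by the sum and 2.02-fold by the highest peak once each was set against its own median. At chr14:55513615-55513972 the values were 38 and 43 (−0.29). The strongest AVC peaks with no chamber overlap had a value of 32, at chr14:55515998-55516309 and chr14:55580534-55580963.

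Strong chamber regions leaned to the chambers in the myosin windows and over the genome. The windows held 8 regions of at least 500 bp with a chamber score of 10 or more, 4 at Myh6-Myh7, 2 at Myl4 and 1 each at Myl2 and Myl3. Of these, 7 had peaks of both lists, and 4 of the 7 were higher in the chambers by at least 2-fold, beside 40.8% of the 1965 such regions in the genome. Their median log2 ratio was −1.29, beside −0.84 (interquartile range −1.29 to −0.47) for the 1965. Choosing regions by the chamber score favours low ratios in both. Chosen by an AVC score of 5 or more instead, the windows held 10 regions of at least 500 bp, 9 of them with peaks of both lists. The 9 had a median log2 ratio of −0.24, beside 0.05 (−0.51 to 0.68) for 3306 in the genome. In that choice 2 of the 9 were higher in the chambers by 2-fold and none in the AVC, against 200 and 388 of the 3306. No difference from the genome was tested.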

How the data were processed

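H3K27ac ChIP-seq of 2 SOLiD libraries, 1 per tissue, was analysed from the deposited peak lists. Per the file headers, peaks were called in each library with OccuPeak 1.3, chromosome by chromosome, at a Log(ER) threshold of 2, taking reads as 50 bp and fragments, by its model, as 60.5 bp in the AVC and 68 bp in the chambers. Bowtie, SAMtools and the mm9 build are listed, without roles, per the submitters' processing notes. The deposited signal values are whole numbers of unstated meaning. The deposited score is the caller's Log(ER), its log base not stated. A control library, pooling of material and depth are not given in the sources used here, so intervals cover counting error only.

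Starts were read as 0-based and are printed 1-based. Peaks were placed by midpoint, counted as overlapping from 1 bp (checked with bedtools 2.31.1) and merged into regions, whose ratio was centred on the median. The merging and calls were tested on simulated data with at most 1 peak per list at a site and no noise. That checks the code, but not how split peaks or noise affect the calls. The named peaks are, in each window and list, the strongest, the strongest without overlap in the other list, and regions with a score of at least 5; others named were chosen after their values were seen, as was the limit of 4 peaks for clusters. The genes, windows and motifs were chosen with earlier results of these data known. Tissue markers elsewhere were not analysed here, for want of mm9 gene positions. Tables were handled with pandas 2.3.3 and numpy 2.4.6 in Python 3.11.15, intervals computed with scipy 1.17.1 and figures drawn with matplotlib 3.10.9. The neighbours of Myl7 are not reported here.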

Additional observations from a re-analysis of the deposited data

How the results depend on the processing

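Of 79 values recomputed under 11 alternatives, 64 stayed within 1.5 times (counts) or within the interval of the reported share, and 15 did not. Some of the 64 could hardly move. Placing peaks by any overlap changed no value, and wide intervals, such as 6.02 to 61.0 at Myl2, admit most shares. With scores of at least 3, peaks in the windows numbered 24 (AVC) and 38 (chambers), regions higher in the chambers 4 of 16 with both lists (beside 11.3% of the genome's), regions with chamber peaks alone 21 and with AVC peaks alone 7. With peaks of at least 300 bp, chamber peaks numbered 45, regions higher in the chambers 4 of 24 (beside 7.56%), regions with chamber peaks alone 20 and with AVC peaks alone 24, and the AVC share at Myl3 was 66.7%, close to the 66.9% of the whole lists under that limit. Both limits leave fewer peaks to count. An overlap of at least 50% of a peak gave 45.1% of AVC and 36.0% of chamber peaks, beside 16.7% and 26.7% of the lists, and a neighbour within 1 kb gave 82.4% and 81.3%, beside 32.9% and 47.5%. Merging within 1 kb left 13 regions with chamber and 9 with AVC peaks alone. For regions with peaks of 1 list, the genome's shares under these alternatives are not given here. No region of the windows was higher in the AVC by 2-fold under any of the alternatives run, beside 2.19% to 8.12% of the genome's regions. With only 16 to 33 regions of both lists in the windows, a count of 0 lies near such shares. The centring on regions of at least 500 bp was added after seeing the data. No paired analysis was possible because each tissue has 1 sample. The unknown depth limits what an uncalled peak shows.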
